A study of Mus musculus with 7 samples.

Results

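The type I interferon response module examined here holds 39 genes that cells switch on when interferon-alpha or interferon-beta reaches them. The members were taken from a fixed list of symbols, and all 39 were among the 27998 genes listed for every library. They fall into 8 groups by role: 3 transcription factors (Stat2, Irf9, Irf7), 6 sensors of RNA or DNA (Ifih1, Ddx58, Dhx58, Zbp1, Ifi203, Ifi204), 3 genes of ISG15 conjugation (Isg15, Usp18, Herc6), 4 Ifit genes, 6 genes of the OAS family and PKR (Oas1a, Oas2, Oas3, Oasl1, Oasl2, Eif2ak2), 7 restriction factors (Mx1, Rsad2, Cmpk2, Bst2, Samhd1, Isg20, Trim30a), 5 Schlafen genes and 5 other members (Rtp4, Ifi44, Xaf1, Parp14, Phf11b).

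The cells were leukocytes from the central nervous system of B6 mice with experimental autoimmune encephalomyelitis, a T cell driven inflammation that follows immunization with a myelin oligodendrocyte glycoprotein peptide. All groups received that peptide and were taken at the peak of disease. Single-cell RNA was read as unique molecular identifiers (UMIs, 1 per captured transcript end) in 7 libraries from 4 groups: WT_CD4 (genotype Lag3wt, cells enriched with CD4 beads, n = 2), Lag3KO_CD4 (genotype Lag3Floxed, CD4 beads, n = 2), WT_CD45 (Lag3wt, CD45 beads, n = 2) and Lag3KO_CD45 (Lag3Floxed, CD45 beads, n = 1). The labels give 5 mice per group, matched in age and sex, and no age, Cre line or deleted exon. They do not say which mice went into which library, so p-values measure the spread between these libraries, which may be technical. LAG3, an inhibitory receptor of T cells, has MHC class II as a ligand, and the series asks what its loss does to regulatory T cells in the inflamed tissue.

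Type I interferons bind the receptor IFNAR1/IFNAR2, whose kinases JAK1 and TYK2 phosphorylate STAT2. Together with IRF9 it forms a complex that binds interferon-stimulated response elements in promoters and switches on genes that detect, degrade or restrain viral RNA and proteins, together with brakes such as USP18. IRF7 is itself induced and drives a further round of interferon production. In autoimmune encephalomyelitis type I interferon is known mostly as a brake on disease that acts through myeloid cells, and interferon-gamma, made by T and NK cells, induces a partly shared set of genes.

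To show the element that the complex binds, the 200 bases before the transcription start of 6 members are given below, 5′ to 3′ on the gene's strand. Isg15 and Rsad2 stand for strongly induced single genes, Ifit1, Ifit3 and Ifit3b for the Ifit cluster, and Bst2 for the member with the widest gap in CPM (UMIs per 1000000 UMIs) between cell classes. All lie in the flank before exon 1. The sequences are from RefSeq, GRCm38.p6, at chr4:156200819-156201018 (minus strand, Isg15), chr19:34640689-34640888 (plus, Ifit1), chr19:34583329-34583528 (plus, Ifit3), chr19:34607757-34607956 (plus, Ifit3b), chr12:26456453-26456652 (minus, Rsad2) and chr8:71537473-71537672 (minus, Bst2). Capitals mark matches to GAAANNGAAA on either strand, with overlapping matches joined:
Isg15: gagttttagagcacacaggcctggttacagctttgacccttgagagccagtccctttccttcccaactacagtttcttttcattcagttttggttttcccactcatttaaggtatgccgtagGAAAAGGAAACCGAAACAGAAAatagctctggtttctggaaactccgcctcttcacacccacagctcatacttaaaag
Ifit1: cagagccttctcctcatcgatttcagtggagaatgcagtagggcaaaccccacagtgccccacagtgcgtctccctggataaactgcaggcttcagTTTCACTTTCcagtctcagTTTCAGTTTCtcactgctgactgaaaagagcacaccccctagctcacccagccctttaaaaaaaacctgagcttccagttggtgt
Ifit3: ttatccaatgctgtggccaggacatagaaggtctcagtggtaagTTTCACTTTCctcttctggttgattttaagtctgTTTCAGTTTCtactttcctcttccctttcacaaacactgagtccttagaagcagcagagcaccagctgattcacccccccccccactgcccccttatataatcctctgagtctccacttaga
Ifit3b: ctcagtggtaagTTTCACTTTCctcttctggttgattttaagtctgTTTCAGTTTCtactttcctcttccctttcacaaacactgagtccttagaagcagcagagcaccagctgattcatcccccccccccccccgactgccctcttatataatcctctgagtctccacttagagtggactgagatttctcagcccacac
Rsad2: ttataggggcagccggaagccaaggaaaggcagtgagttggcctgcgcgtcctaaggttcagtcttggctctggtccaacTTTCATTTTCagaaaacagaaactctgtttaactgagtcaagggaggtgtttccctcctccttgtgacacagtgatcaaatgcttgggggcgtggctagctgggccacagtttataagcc
Bst2: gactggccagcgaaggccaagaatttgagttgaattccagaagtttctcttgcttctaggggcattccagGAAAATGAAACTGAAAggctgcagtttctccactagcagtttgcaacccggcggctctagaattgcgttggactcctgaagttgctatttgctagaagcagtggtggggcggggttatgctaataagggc

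Isg15, a ubiquitin-like protein that is attached to other proteins, had 3 overlapping matches that begin 78, 72 and 66 bases before the start. Ifit1, which binds foreign RNA ends, had matches that begin 104 and 85 bases before the start, on the other strand. Ifit3 and its near copy Ifit3b carried the same pair of matches within a shared run of 119 identical bases. Rsad2, the antiviral enzyme viperin, had 1 match, and Bst2, a membrane tether of budding virus also called tetherin, had 2 overlapping ones.

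RefSeq held a promoter window (250 bases before to 50 after the start) for 31 of the 39 members. GAAANNGAAA, searched on both strands, was in the window of 17 of these 31 (54.8%), against 1062 of 26994 genes (3.93%). With 1 mismatch in the fixed letters it was in 28 of 31 (90.3%), against 38.8% of all genes. TTCNNNGAA, the core of the interferon-gamma activated site, was in 6 of 31 members (19.4%) and in 9.54% of all genes. By role the first motif was found in 3 of 4 Ifit genes, 3 of 3 sensors, 3 of 5 OAS family genes, 3 of 6 restriction factors, 2 of 5 Schlafen genes and 1 each of 2 ISG15 conjugation genes, 3 transcription factors and 3 other members. Neither motif's letters were in the windows of Irf7, Irf9, Slfn1, Slfn2, Slfn4, Oasl1, Oasl2, Cmpk2, Herc6, Ifi44 or Xaf1.

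Members cluster in the genome. The 4 Ifit genes lie on chromosome 19 between 34550694 and 34650009, and the 5 Schlafen genes on chromosome 11 between 82951349 and 83190216 (GRCm38). All 5 Oas and Oasl genes lie on chromosome 5. Genes of these clusters, of the Ifi203 and Ifi204 family and of the Phf11 and Trim30 families have near copies, and their UMI counts could be split or shared by the authors' counting.

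Facts that touch every result are these. The 7 libraries held 4585251 to 18940186 UMIs in 1428 to 2517 barcodes, of which 13411 of 13922 were used, and member UMIs ranged from 20088 to 83250 per library. A barcode of the CD4 libraries held a median of 2086.5 to 2599.5 UMIs and one of the CD45 libraries 5680 to 6405. Lag3 had 289 and 107 UMIs in WT_CD4 1 and 2, 1 and 0 in Lag3KO_CD4 1 and 2, 304 in WT_CD45 1, 2 in Lag3KO_CD45 1 and 4 in the library labelled WT_CD45 2, whose label that count contradicts. These are 3′ tags, and a tag outside the deleted part checks nothing. Xist was at 927 to 1016 CPM in the CD4 libraries and at 0 CPM in those of the CD45 sort, with Y-linked transcripts the reverse (0.346 to 0.872 against 111 to 127), so sort, sex and batch cannot be told apart. Haemoglobin transcripts were at 13157 and 3199 CPM in WT_CD4 2 and Lag3KO_CD4 2 and at most 1.78 in the other libraries. No pair of libraries shared more than 12 barcodes (0.632% of the smaller library).

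Barcodes were assigned to classes by the UMIs of marker genes, none of which is a member. The classes used were CD4 T cells (5544 barcodes), monocytes and macrophages (3171), type 2 conventional dendritic cells (cDC2, 535), CD8 T cells (376), migratory dendritic cells, microglia, neutrophils, plasmacytoid dendritic cells (pDC), NK cells and B cells, while 1512 barcodes with markers of several classes and 633 with too few were set apart. The CD4 T cell class means T cell receptor complex transcripts without those of CD8, NK or myeloid cells. A Cd4 UMI was found in 40.2% to 52.4% of its barcodes per library, against 0% to 6.09% of monocytes and macrophages, so gamma delta T cells may remain in it. In the CD4 libraries 31.7% to 51.3% of the barcodes called CD8 T cells had a Cd4 UMI. Markers of monocytes and macrophages had a median of 1.89 (CD4 libraries) and 6.94 (CD45 libraries) UMIs per 10000 in CD4 T cells, against 186 and 249.4 in their own class.

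In the CD45 libraries plasmacytoid dendritic cells and cDC2 carried the highest summed levels of the module, and B cells the lowest. The first place of pDC rests on Bst2, which gave 69.4% of their member UMIs, and does not show a high level of the other members. The summed level is the member UMIs of a class per 10000 UMIs of that class in a library. In these libraries, which hold all 10 classes, it was 75.3, 64.9 and 72.0 in pDC (WT_CD45 1, the library labelled WT_CD45 2 and Lag3KO_CD45 1, mean 70.7 ± 5.30, SD, n = 3) and 60.5, 60.3 and 58.2 in cDC2 (59.7 ± 1.30, n = 3). Both ranges lay above that of the next class. Monocytes and macrophages followed at 45.9 ± 4.18 (n = 3), migratory dendritic cells at 41.6 ± 5.17 (n = 3), microglia at 36.1 ± 9.75 (n = 2), CD8 T cells at 32.2 ± 10.7 (n = 3) and CD4 T cells at 28.9 ± 3.70 (n = 3). Neutrophils were at 22.9 ± 6.37 (n = 2), NK cells at 22.0 ± 5.61 (n = 3) and B cells at 16.0 ± 2.30 (n = 3). From monocytes and macrophages down, each range overlapped that of the class next in order. The order does not carry over to the CD4 libraries, where neutrophils were at 72.3 to 120 and monocytes and macrophages at 54.8 to 102.

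The sum was made of different genes in different classes. In pDC, Bst2 alone gave 3587 of 5170 member UMIs (69.4%) and Irf7 a further 6.11%. In CD4 T cells the 5 most abundant members, Slfn2, Bst2, Samhd1, Isg15 and Zbp1, together gave 45.6%, with Slfn2, a regulator of T cell quiescence, at 13.5%. Bst2 (10.9%) and Samhd1 (9.97%), an enzyme that lowers the supply of deoxynucleotides, led in monocytes and macrophages. In migratory dendritic cells Isg15 led with 18.1%. In B cells Samhd1 (15%) and Ifi203 (13.7%) led.

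Of the 39 members, 16 had their highest mean level in cDC2, 9 in monocytes and macrophages, 5 in pDC, 4 in migratory dendritic cells, 2 in CD8 T cells and 1 each in CD4 T cells, microglia and neutrophils. Some of these places are near ties or rest on few UMIs. Cmpk2 was at 21.7 CPM in CD8 T cells and 21.5 in neutrophils, and Oas2 in microglia had 11 UMIs (7.16 and 56.6 CPM). For 9 members the libraries of the highest class did not overlap those of the next, namely Isg15, Herc6 and Oasl1 in migratory dendritic cells, Bst2, Trim30a and Ifi44 in pDC, and Eif2ak2, Slfn2 and Slfn5 in cDC2. The share of all genes without such overlap was not determined, so this count cannot be read as particular to the members. Levels of single members are in CPM of the class and are not scaled by gene length, since each UMI marks 1 transcript end.

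**Figure D1:**
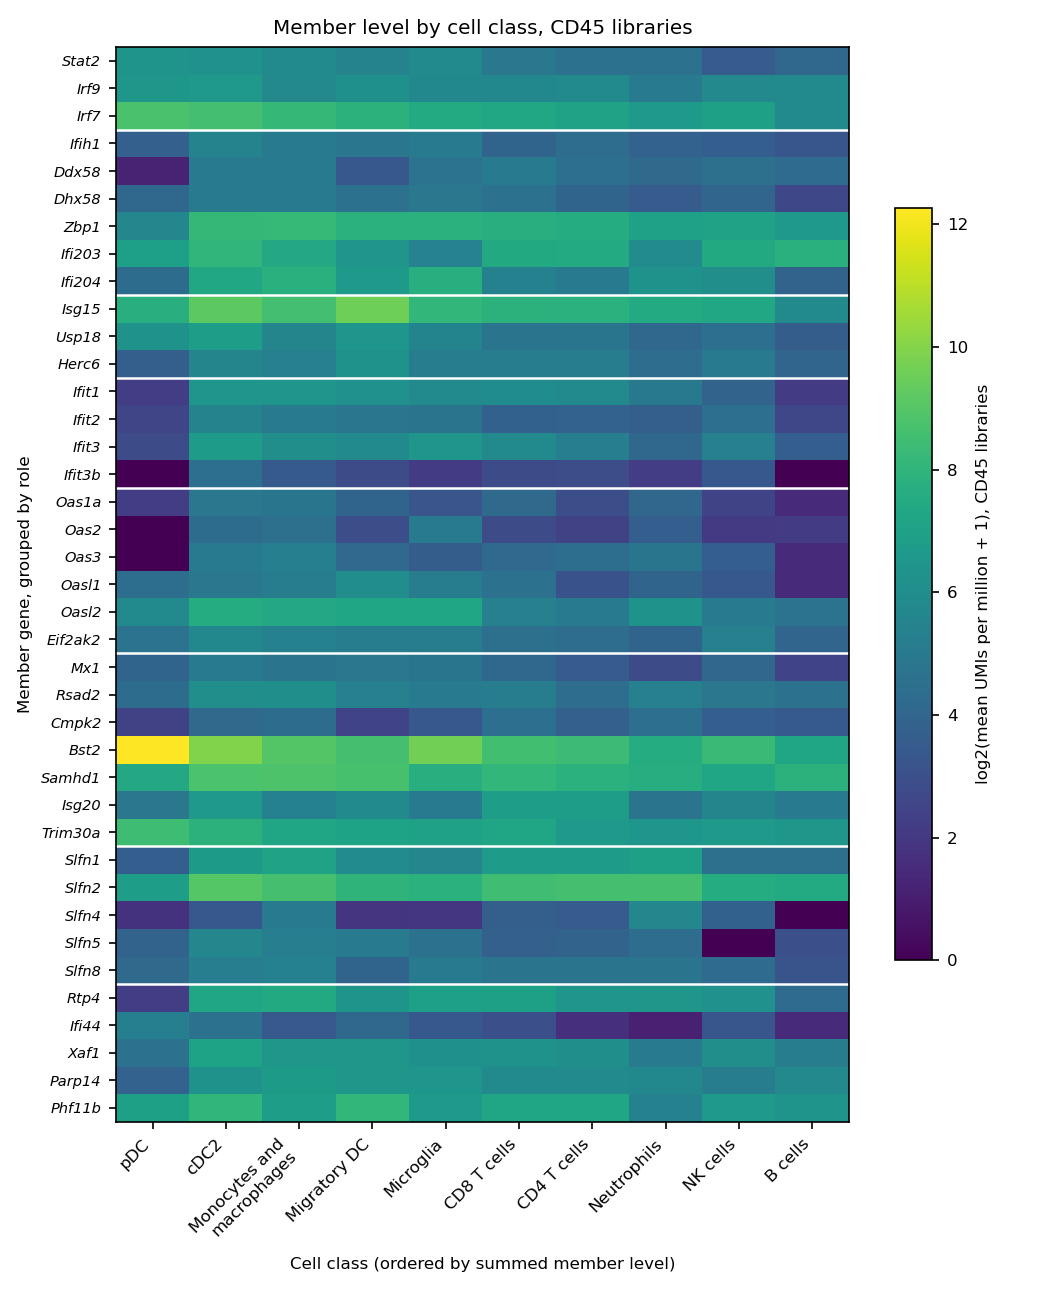
Mean level of each of the 39 members (rows, grouped by role with white lines between groups) in 10 cell classes of the CD45 libraries (columns, ordered by summed member level), as log2(CPM + 1). Bst2 in pDC is the brightest field (mean 4913 CPM), and Oas2, Oas3 and Ifit3b in pDC are at 0. Ifit3b and Slfn4 in B cells and Slfn5 in NK cells are at 0 as well.

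Among the transcription factors, Irf7 was at 478, 312 and 477 CPM in pDC (422 ± 95.7, SD, n = 3) and at 389, 373 and 401 in cDC2. The pDC libraries lay on both sides of the cDC2 range. Stat2 (80.4 ± 19.9 in pDC, 73.0 ± 8.94 in cDC2) and Irf9 (89.4 ± 6.64 and 96.8 ± 14.5), partners in the DNA-binding complex, overlapped between these classes as well. The spread between classes was far wider for Irf7, which reached only 54.9 ± 22.8 in B cells (n = 3), than for Irf9, whose lowest class, neutrophils, was at 33.7 ± 27.9 (n = 2).

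Migratory dendritic cells stood out for ISG15 conjugation. Isg15 was at 802, 734 and 723 CPM there against 570, 608 and 542 in cDC2. All 3 libraries of migratory dendritic cells lay above all 3 of cDC2. Herc6, the mouse ligase that attaches ISG15, was at 74.3 ± 14.3 against 46.1 ± 5.21 in cDC2, and Oasl1, a repressor of Irf7 translation, at 63.8 ± 3.13 against 36.3 ± 10.7 in monocytes and macrophages, the class next in order. Usp18, which removes ISG15 and blocks the receptor, was highest in cDC2 at 112 ± 13.4.

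The pDC profile was narrow. Bst2, a marker of this cell type in the mouse also without stimulation, was at 5004, 4568 and 5168 CPM (4913 ± 310) against 974 ± 143 in cDC2. Trim30a was at 347 ± 60.6 and Ifi44 at 37.6 ± 1.91. Several strongly inducible members were scarce in the same cells: Ifit1 had 3 UMIs and Ifit3 had 5 in 155 barcodes, and Oas2, Oas3 and Ifit3b had none, which allows up to 4.15 CPM over the 3 libraries (a limit of 3 counts, counting error only). This scarcity is not particular to pDC. In B cells Ifit1 had 2 UMIs, Ifit3 had 7, Oas2 had 2, Oas3 had 1 and Ifit3b had 0.

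Within-library contrasts with edgeR's quasi-likelihood test, fitted over all genes with the library as a block, put these differences beside all genes. Monocytes and macrophages were set against CD4 T cells first. There 32 of 39 members were higher in monocytes and macrophages and 1, Isg20, was lower (adjusted p under 0.05 after Benjamini-Hochberg adjustment), where 24.9% of all 10433 genes tested were higher and 27.2% lower. The median member difference was 0.99 on the log2 scale and that of all genes -0.09. All 6 genes of the OAS family and PKR, all 5 Schlafen genes, all 3 of ISG15 conjugation and 6 of 7 restriction factors were higher, as were 4 of 6 sensors and 2 of 4 Ifit genes. Here the smallest p-values belonged to Oasl2 (log2 difference 2.88 ± 0.19, SE), Oas1a (2.30 ± 0.15), Ifi204 (3.73 ± 0.26), Oasl1 (3.15 ± 0.24), Rtp4 (1.33 ± 0.12), Oas2 (2.52 ± 0.22), Irf7 (1.65 ± 0.16), Isg15 (1.34 ± 0.14), Zbp1 (0.93 ± 0.11), Ifit2 (2.33 ± 0.27), Rsad2 (2.08 ± 0.24) and Dhx58 (1.28 ± 0.16). Ifi204 and its relatives sense DNA in myeloid cells, and the OAS enzymes make the signal that activates RNase L. Isg20, an RNA exonuclease, was lower by the contrast (log2 difference -1.20 ± 0.17). Ifit1 (0.44 ± 0.21, adjusted p = 0.0946), Ifi203, Ddx58, Irf9, Ifit3b and Phf11b did not pass.

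Against monocytes and macrophages of the same 3 CD45 libraries, pDC were higher for 5 members and lower for 30 of 39 in edgeR's test (13% of 10268 genes were higher and 22.3% lower). The higher members were Bst2 (log2 difference 2.95 ± 0.07), Ifi44 (1.67 ± 0.38), Trim30a (0.87 ± 0.12), Usp18 (0.55 ± 0.23, adjusted p = 0.0482 from edgeR) and Irf7 (0.27 ± 0.11, adjusted p = 0.0326 from edgeR). Usp18 rested on WT_CD45 1, where pDC had 160 CPM against 22.7 and 46.7 in the other libraries, and without that library its difference was -0.66. All 6 sensors, all 6 genes of the OAS family and PKR, all 5 Schlafen genes and all 4 Ifit genes were lower. Among those with the smallest p-values were Zbp1, a sensor of Z-form nucleic acid (-2.85 ± 0.18), Rtp4 (-5.68 ± 0.37), Ifi204 (-3.72 ± 0.24), Slfn2 (-2.11 ± 0.14), Samhd1 (-1.79 ± 0.13), Slfn1 (-4.11 ± 0.33), Parp14 (-3.20 ± 0.32), Isg15 (-1.21 ± 0.12), Oasl2 (-1.87 ± 0.20), Ifit1 (-4.56 ± 0.46) and Ifit3 (-3.48 ± 0.43). The Ifit1 and Ifit3 values rest on the 3 and 5 pDC UMIs given above. Rtp4 and Slfn1 had 3 and 7 pDC UMIs, Ddx58, Slfn4 and Oas1a had 1, 2 and 3, and Ifit2 and Cmpk2 had 4 and 3. All these members, with Oas2, Oas3 and Ifit3b, passed the filter on low counts through monocytes and macrophages. They could therefore hardly come out higher in pDC. Ifih1 and Slfn5 had 9 pDC UMIs, Herc6, Mx1 and Parp14 had 10, and Dhx58, Rsad2 and Slfn8 had 13. The values of these members rest on few counts as well.

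Microglia, the resident macrophages of the brain, were lower than monocytes and macrophages for 20 of the 35 members tested and higher for 1, Bst2 (0.51 ± 0.15), in edgeR's test (19.5% of 4397 genes were lower and 19.3% higher). The median over these 35 was -0.89 and that of all genes 0.01. All 4 Schlafen genes tested were lower, with Slfn4 at -5.21 ± 0.68, Slfn1 at -3.74 ± 0.47 and Slfn2 at -1.28 ± 0.17. Ifi203 (-3.93 ± 0.42), Samhd1 (-1.48 ± 0.16), Irf7 (-1.45 ± 0.28), Oas1a (-1.21 ± 0.26), Rtp4 (-0.86 ± 0.19), Oas3 (-2.30 ± 0.54), Cmpk2 (-2.42 ± 0.57), Isg15 (-0.97 ± 0.23) and Ifit1 (-1.57 ± 0.40) were lower as well. Slfn4 had 2, Cmpk2 9, Oas3 15, Ifi203 18 and Slfn1 24 UMIs in microglia, so their values rest on few counts. Slfn4 and Cmpk2 passed the filter on low counts through monocytes and macrophages. Without Lag3KO_CD4 2, which held 94 of the microglia barcodes, 13 members passed instead of 21.

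Within CD4 T cells, 1544 barcodes with regulatory T cell markers were set against the other 4000 in the same libraries. With edgeR 10 of 38 members tested were higher and 2 lower (6.3% of 8475 genes were higher and 6.48% lower), with a member median of 0.16 and an all-gene median of -0.01. Samhd1 differed most clearly (log2 difference 0.75 ± 0.07, adjusted p = 1.56e-08 from edgeR). Its level in marker-positive barcodes was 477, 555, 507, 620, 360, 343 and 298 CPM in the order WT_CD4 1 and 2, Lag3KO_CD4 1 and 2, WT_CD45 1 and 2 and Lag3KO_CD45 1, and 280, 286, 255, 445, 219, 180 and 169 in the others. It was higher in all 7 libraries. Oas1a (0.93 ± 0.17), Rtp4 (0.39 ± 0.08), Trim30a (0.39 ± 0.09), Parp14 (0.41 ± 0.10), Isg20 (0.32 ± 0.08), Stat2 (0.49 ± 0.13), Zbp1 (0.25), Phf11b (0.24 ± 0.07) and Eif2ak2 (0.53 ± 0.17) were also higher, and Slfn2 (-0.25 ± 0.06) and Slfn1 (-0.28 ± 0.08) lower. None of the 4 Ifit genes and none of the 3 genes of ISG15 conjugation passed. Without WT_CD4 1 or without WT_CD4 2, 7 members passed.

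Within a class, a minority of barcodes held far more member UMIs than the rest. Each barcode's score is its member UMIs per 10000 of its UMIs. In CD4 T cells the median score was 24.9 in WT_CD4 1, 29.8 in WT_CD4 2, 27.8 in Lag3KO_CD4 1, 38.9 in Lag3KO_CD4 2, 20.02 and 18.4 in WT_CD45 1 and the library labelled WT_CD45 2, and 17.1 in Lag3KO_CD45 1. The 99th percentile lay between 130 and 270 in these libraries. After thinning each barcode to 1000 UMIs, the share of CD4 T cells with at least 10 member UMIs was 5.59% in WT_CD4 1 (95% limits 4.43% and 6.93%, exact Clopper-Pearson), 11.9% in WT_CD4 2 (10.0% and 14.1%), 7.92% in Lag3KO_CD4 1 (6.24% and 9.89%) and 16.6% in Lag3KO_CD4 2 (14.6% and 18.7%). In the CD45 libraries it was 5.83%, 6.07% and 4.72%. Both replicates 2 of the CD4 sort lay above both replicates 1. Unthinned values were 4.72%, 10.7%, 6.20%, 14%, 4.93%, 4.79% and 3.86% in library order, and thinning left out 62, 20, 40 and 45 shallower barcodes in the CD4 libraries and none in the CD45 libraries. Intervals cover counting error only.

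Monocytes and macrophages had larger such shares, at 25.5% in WT_CD4 1, 27.5% in WT_CD4 2, 31.0% in Lag3KO_CD4 1 and 42.9% in Lag3KO_CD4 2 (40 to 87 thinned barcodes each), 12.9% and 16.3% in WT_CD45 1 and the library labelled WT_CD45 2, and 8.90% in Lag3KO_CD45 1. Unthinned they were 17.9%, 17.5%, 26.1%, 39.7%, 10.7%, 13.1% and 6.09%. B cells, sequenced to a median of 3055 to 3374 UMIs, gave 0 of 44, 1 of 55 and 0 of 63 barcodes, where 0 allows up to 8.04% and 5.69%. In pDC (median 4214 to 5173 UMIs) shares were 17.6%, 10.3% and 27.7% (11.8%, 10.3% and 15.4% unthinned; 41.2%, 23.1% and 27.7% when thinned to 500 UMIs). The spread between pDC barcodes was small: the variance of member UMIs over their mean was 1.46 to 2.58, against 3.25 to 6.402 in CD4 T cells and 4.13 to 12.7 in monocytes and macrophages. In B cells it was 1.90, 3.23 and 2.56, so a small spread is not particular to pDC.

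**Figure D2:**
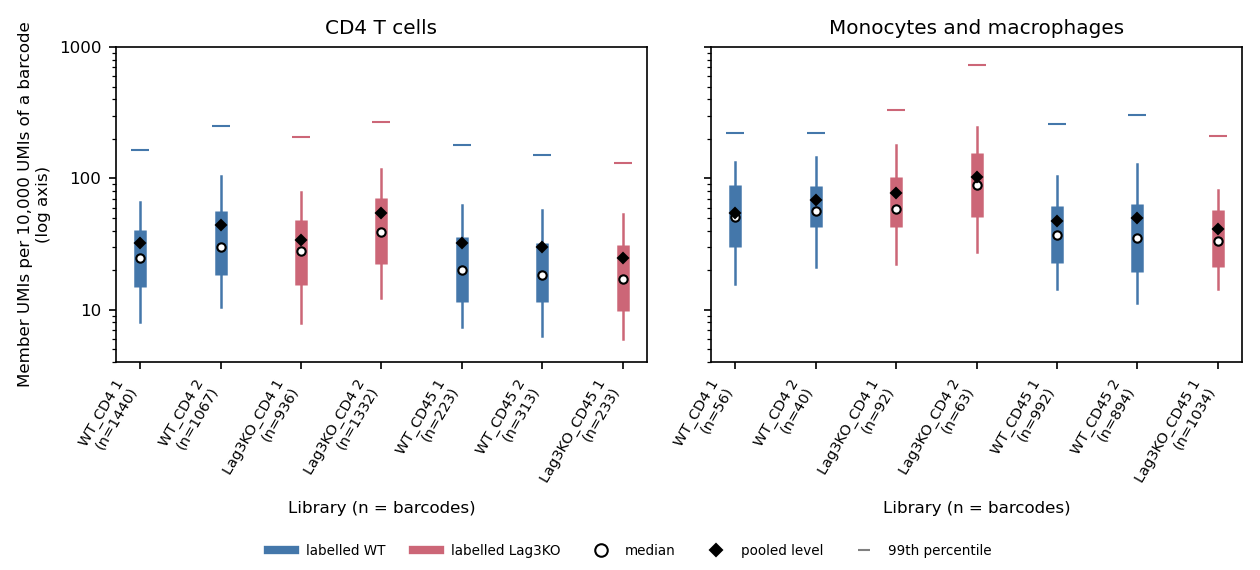
Member UMIs per 10000 UMIs of a barcode (log axis) in each library for CD4 T cells (left) and monocytes and macrophages (right): thick bars span the 25th to 75th percentile, thin lines the 10th to 90th, dashes mark the 99th percentile, circles the median and diamonds the pooled level. The median and the pooled level of replicate 2 lie above those of replicate 1 in both CD4 groups, and the 99th percentiles of CD4 T cells reach 130 to 270.

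Members were detected together in the same barcodes. Among thinned CD4 T cells with an Ifit1 or Ifit3 UMI, 38.5% to 56.8% per library also had an Isg15 UMI, against 6.82% to 14.8% of those without. The 2 ranges did not overlap. The mean number of other member UMIs was 7.00 to 10.0 in the first set and 2.25 to 3.84 in the second. For monocytes and macrophages of the CD45 libraries Isg15 was found in 62.7%, 69.5% and 53.8% of barcodes with an Ifit1 or Ifit3 UMI and in 21.1%, 19.8% and 18.7% of those without. In the CD4 libraries, with only 5 to 16 barcodes that had an Ifit1 or Ifit3 UMI, the shares ran from 42.9% to 75% with and from 23.9% to 47.6% without, and the ranges overlapped. WT_CD4 2 had the closest pair (42.9% and 39.4%). All barcodes were thinned to the same depth, so depth did not differ between the sets.

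Genotype was compared within each class with the sort as a term. Among CD4 T cells no member of the 39 passed edgeR's quasi-likelihood test after Benjamini-Hochberg adjustment, and 0% of 10171 genes did. The count at unadjusted p under 0.05 was 0 members and 305 genes, and DESeq2 also called 0 members. The fitted difference, Lag3KO minus WT, was positive for 25 of 39, with a median of 0.08 beside -0.00 for all genes. The 5 members with the smallest p were Slfn4 (-1.42 ± 0.79, SE), Eif2ak2 (0.30 ± 0.19), Ifit2 (-0.40 ± 0.28), Ifih1 (0.32 ± 0.23) and Bst2 (0.23 ± 0.17). Slfn4 had 38 UMIs in this class, 36 of them in the CD45 libraries.

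Isg15 in CD4 T cells was at 170 CPM in WT_CD4 1, at 308 in WT_CD4 2, at 235 in Lag3KO_CD4 1, at 376 in Lag3KO_CD4 2, at 268 in WT_CD45 1, at 265 in the library labelled WT_CD45 2 and at 152 in Lag3KO_CD45 1. The genotypes overlapped in the CD4 sort, and the single Lag3KO library was lowest in the CD45 sort. Ifit1 ran 112 and 178, 123 and 251, 60.9 and 68.9, and 40.6 in the same order, and Ifit3 ran 56.5 and 111, 73.2 and 170, 49.3 and 34.0, and 26.0. Both followed the same order of libraries within the CD4 sort as Isg15. Rsad2, the antiviral enzyme viperin, was at 16.2, 32.0, 20.5, 36.0, 23.2, 28.6 and 7.28 in library order.

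The other members given in every library were Oasl2 at 20.2, 51.8, 32.3, 51.7, 57.0, 25.5 and 15.6, Usp18 at 28.2, 51.8, 29.5, 64.8, 33.8, 21.7 and 21.8, and Irf7 at 133, 182, 128, 272, 175, 117 and 101 CPM in CD4 T cells. Stat2 was at 26.0, 37.6, 28.5, 41.4, 30.9, 22.4 and 15.6. In the CD4 sort these 4 did not separate the genotypes, and replicate 2 was the higher in each group. Bst2 was at 269, 406, 331, 483, 363, 293 and 362, Slfn2 at 523, 536, 519, 619, 407, 429 and 351, and Zbp1 at 220, 287, 237, 340, 188, 193 and 198. Slfn2 was higher in all 4 CD4 libraries than in all 3 CD45 libraries.

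The libraries with the higher levels in the CD4 sort, WT_CD4 2 and Lag3KO_CD4 2, were those with haemoglobin transcripts. The summed level in CD4 T cells was 32.0 in WT_CD4 1, 43.8 in WT_CD4 2, 33.7 in Lag3KO_CD4 1, 54.2 in Lag3KO_CD4 2, and 32.1, 29.8 and 24.9 in the CD45 libraries. Erythroid markers in CD4 T cells were at 2.62 and 0.810 UMIs per 10000 in WT_CD4 2 and Lag3KO_CD4 2, at 0.0155 in the library labelled WT_CD45 2 and at 0 in the other libraries. A fit with a term for the haemoglobin libraries, added after seeing the data, also called 0 members in CD4 T cells and in monocytes and macrophages. Whether the erythroid RNA has a part in the higher levels was not tested.

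**Figure D3:**
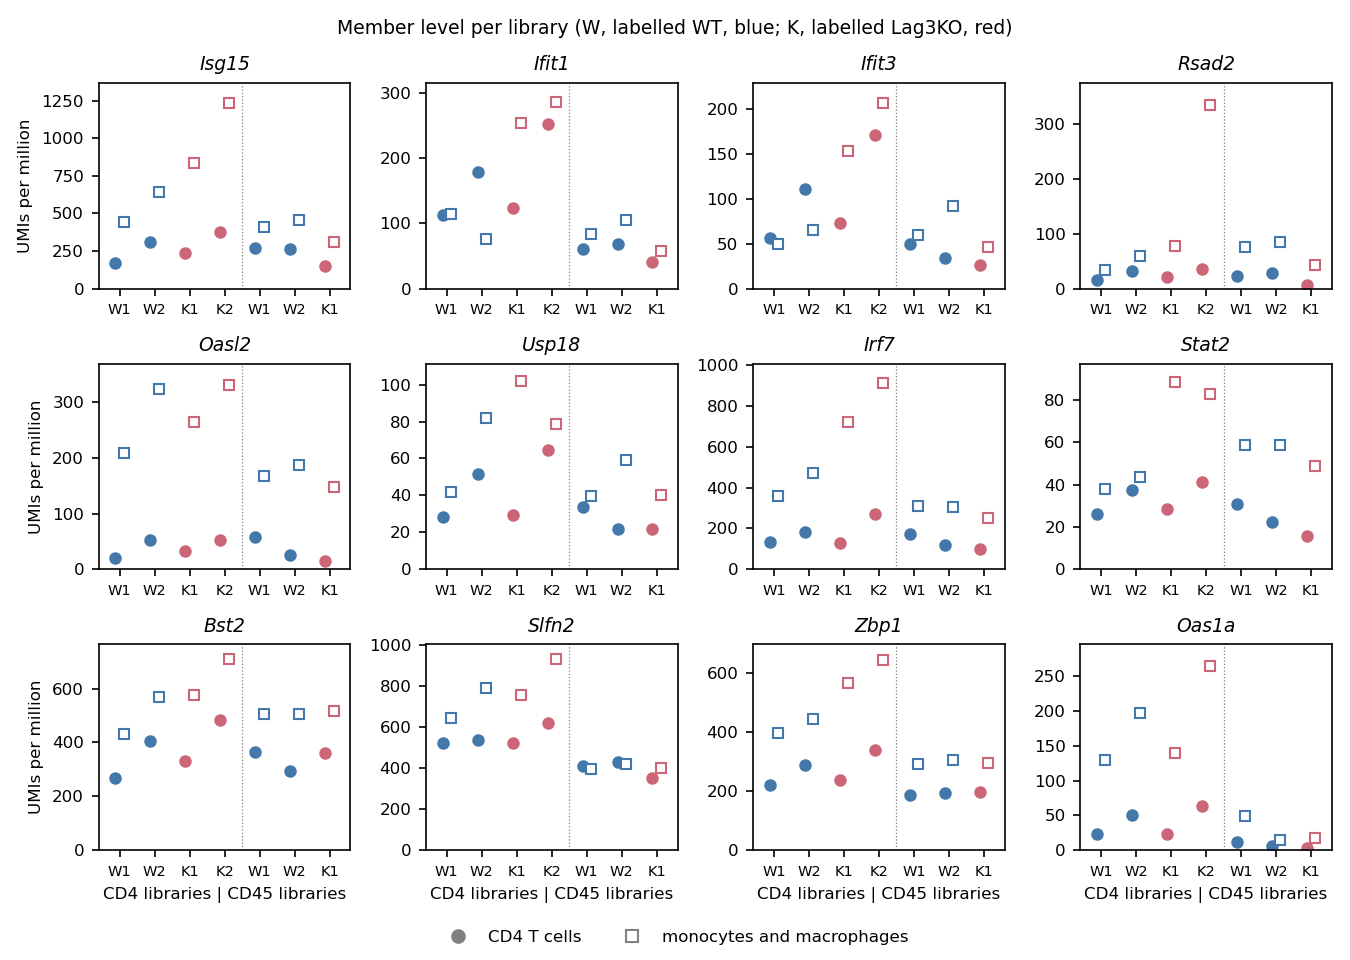
Level of 12 members in CPM, in each library (W, labelled WT, blue; K, labelled Lag3KO, red), for CD4 T cells (filled circles) and monocytes and macrophages (open squares); CD4 libraries are left and CD45 libraries right of the dotted line. Isg15 in monocytes and macrophages reaches 1238 in Lag3KO_CD4 2 and 838 in Lag3KO_CD4 1, above 441 and 640 in the WT_CD4 libraries.

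Barcodes with regulatory T cell markers and the other CD4 T cells gave the same count of calls. In the former 0 of 36 members tested passed edgeR's test (0% of 7553 genes), with 0 at unadjusted p under 0.05 and 26 positive. The smallest p-values were those of Isg20 (0.30 ± 0.15), Slfn5 (-0.87 ± 0.45), Zbp1 (0.26 ± 0.15), Herc6 (0.42 ± 0.25) and Bst2 (0.33 ± 0.19). In the other CD4 T cells 0 of 38 passed (0% of 9382 genes), with 2 at unadjusted p under 0.05, Eif2ak2, the kinase PKR (0.59 ± 0.25), and Slfn4 (-2.21 ± 0.93), followed by Ifi204 (0.46 ± 0.31), Ifit2 (-0.49 ± 0.37) and Ifit3b (0.57 ± 0.44). DESeq2 called 0 members in both.

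Among monocytes and macrophages 0 of 36 members tested passed over both sorts (0% of 4432 genes), and 13 of 36 were positive with a median of -0.08. At unadjusted p under 0.05 there was 1, Irf9 (-0.36 ± 0.15), and DESeq2 called 0. Slfn4 (-0.82 ± 0.48), Zbp1 (0.25 ± 0.15), Slfn8 (-0.25 ± 0.15) and Irf7 (0.40 ± 0.25) followed. The members' signs differed between the sorts.

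Within the CD4 libraries, 35 of 38 members tested were positive in monocytes and macrophages, with a median of 0.47 on the log2 scale beside -0.01 for all genes. Isg15 was at 441 and 640 CPM in WT_CD4 1 and 2 and at 838 and 1238 in Lag3KO_CD4 1 and 2. Irf7 was at 361 and 470 against 720 and 911. Neither gene's genotypes overlapped. Ifit1 (114 and 76.6 against 254 and 286), Ifit3 (49.4 and 65.6 against 153 and 207), Stat2 (38.0 and 43.8 against 88.3 and 82.8), Rsad2 (34.2 and 60.2 against 77.6 and 335) and Zbp1 (395 and 443 against 565 and 642) did not overlap either. Bst2 (433 and 569 against 576 and 712) was also apart, while Oasl2 (209 and 323 against 265 and 331), Usp18 (41.8 and 82.0 against 102 and 78.6) and Slfn2 (642 and 788 against 752 and 931) overlapped. The share of all genes without overlap between these libraries was not determined, so the lack of overlap cannot be read as particular to the members.

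No member passed the adjusted threshold there (0 of 38, with 0% of 5199 genes), and 11 had unadjusted p under 0.05. Ifit1 (1.47 ± 0.26, adjusted p = 0.346 from edgeR), Irf7 (0.99 ± 0.20, adjusted p = 0.445 from edgeR), Ifit3 (1.66 ± 0.38), Isg15 (0.96 ± 0.24) and Ifi204 (0.75 ± 0.20) had the smallest p-values. DESeq2 called 2 members, Irf7 and Ifit1, both higher in Lag3KO. These values rest on 56 and 40 WT and 92 and 63 Lag3KO barcodes. Markers of monocytes and macrophages in these barcodes were at 323 and 207 UMIs per 10000 in WT_CD4 1 and 2 and at 189 and 204 in Lag3KO_CD4 1 and 2; their part in the difference was not tested.

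In the CD45 libraries the signs were reversed, with 0 of 38 members positive and a median of -0.30. Isg15 was at 407, 458 and 312 CPM in WT_CD45 1, the library labelled WT_CD45 2 and Lag3KO_CD45 1, Ifit1 at 84.1, 104 and 57.5, Ifit3 at 59.5, 91.7 and 46.3, and Rsad2 at 76.1, 85.1 and 42.8. In each of these the single Lag3KO library was lowest. Irf7 was at 308, 305 and 253, Stat2 at 58.5, 58.5 and 48.8, Usp18 at 39.9, 59.4 and 40.3, and Oasl2 at 168, 187 and 149. Levels of Bst2 (506, 506 and 515), Slfn2 (395, 419 and 401) and Zbp1 (291, 304 and 295) lay close together. In CPM Bst2 was highest in Lag3KO_CD45 1, and Slfn2 and Zbp1 lay within the WT range. Their fitted signs, after edgeR's TMM scaling, were negative all the same, so the signs do not show a drop in every member. Again 0 members passed (0% of 5199 genes). Of the 5 at unadjusted p under 0.05, Ifit2 was at -0.83 ± 0.23, Ifit1 at -0.75 ± 0.22, Oasl1 at -0.87 ± 0.27, Slfn4 at -1.39 ± 0.44 and Ifit3 at -0.74 ± 0.27. DESeq2 called 0. These directions rest on the label of WT_CD45 2 and on 1 Lag3KO library, whose spread is taken from the other groups.

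The difference between the sorts was itself tested in monocytes and macrophages. It was positive for 37 of 38 members, with a median of 0.88 beside 0.01 for all genes, 15 members were at unadjusted p under 0.05, and 0 passed edgeR's adjusted threshold (0% of 5199 genes). Ifit1 (2.22 ± 0.35, adjusted p = 0.467 from edgeR), Ifit3 (2.40 ± 0.46), Irf7 (1.31 ± 0.30), Stat2 (1.40 ± 0.33) and Oasl1 (2.25 ± 0.56) had the smallest p-values, and DESeq2 called 1, Ifit1. This contrast shares its libraries with the contrasts within each sort.

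Signs were split between the sorts in CD4 T cells as well. Directions in the CD45 libraries rest on the label of WT_CD45 2 and on 1 Lag3KO library. Markers of monocytes and macrophages in CD4 T cells were at 13.1 UMIs per 10000 in WT_CD45 1. They were at 8.10 in the library labelled WT_CD45 2 and at 7.86 in Lag3KO_CD45 1, and their part was not tested. Within the CD4 libraries 37 of 39 members were positive with a median of 0.25, 0 were at unadjusted p under 0.05 and 0 passed (0.0471% of 10608 genes did). Ifi204 (0.74 ± 0.36), Ifih1 (0.46 ± 0.26), Ifit3 (0.55 ± 0.38), Isg15 (0.37 ± 0.27) and Oas2 (0.66 ± 0.50) had the smallest p-values. In the CD45 libraries 6 of 39 were positive and 0 passed (0% of 10608 genes), with Rsad2 (-1.83 ± 0.74) alone at unadjusted p under 0.05, then Isg15 (-0.80 ± 0.37), Slfn1 (-0.58 ± 0.29), Ifit2 (-1.18 ± 0.60) and Slfn4 (-1.74 ± 0.93). For the difference between the sorts 38 of 39 were positive and 0 passed (0% of 10608 genes). Rsad2 (2.09 ± 0.81) and Isg15 (1.17 ± 0.46) were at unadjusted p under 0.05, followed by Slfn1 (0.77 ± 0.35), Rtp4 (0.99 ± 0.49) and Ifi204 (1.22 ± 0.66). DESeq2 called 0 in these 3 contrasts.

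**Figure D4:**
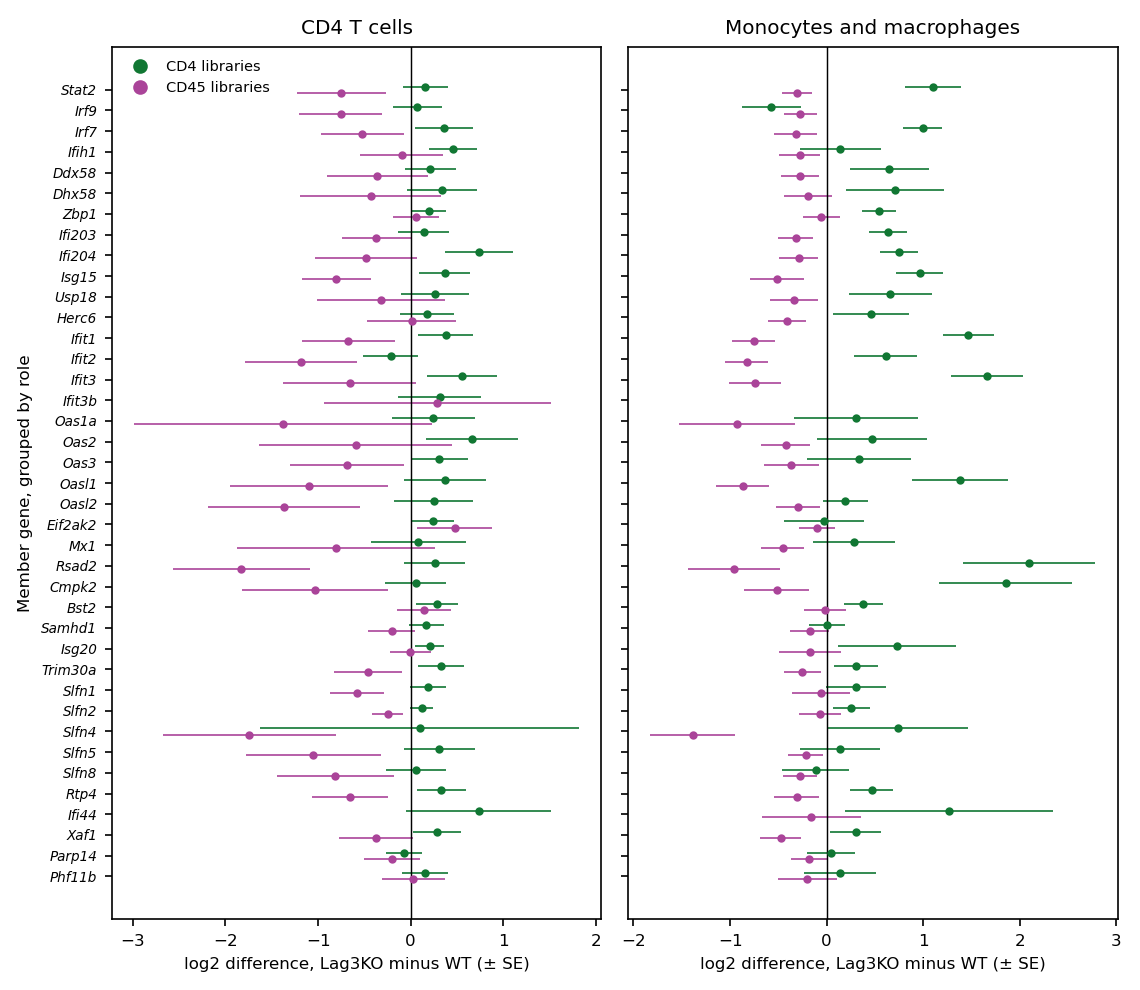
Fitted log2 difference (Lag3KO minus WT, with its standard error) of each member in CD4 T cells (left) and monocytes and macrophages (right), within the CD4 libraries (green) and the CD45 libraries (purple); Ifi44 in CD4 T cells of the CD45 libraries is not drawn because the Lag3KO library had 0 UMIs. In monocytes and macrophages 35 of 38 members lie right of 0 in the CD4 libraries and 0 of 38 in the CD45 libraries; none passed the adjusted threshold.

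The summed level differed in sign between the sorts in some classes and not in others. For monocytes and macrophages it was 54.8 in WT_CD4 1, 68.9 in WT_CD4 2, 76.9 in Lag3KO_CD4 1 and 102 in Lag3KO_CD4 2, a log2 ratio of means of 0.53 without overlap. In the CD45 sort WT_CD45 1 was at 47.0, the library labelled WT_CD45 2 at 49.5 and Lag3KO_CD45 1 at 41.3 (-0.22). The lack of overlap rests on the label: the value of WT_CD45 1 lay between those of the other two. With 1 of the libraries labelled WT left out, the log2 ratio was -0.26 to -0.19. Neutrophils of the CD4 sort were at 72.3 and 101 against 102 and 120 (0.35), and of the CD45 sort at 27.4 in WT_CD45 1 against 18.4 in Lag3KO_CD45 1 (-0.58). Neutrophil depth was a median of 1069.5 UMIs in the CD4 libraries and 8464 in the CD45 libraries. Microglia were at 49.2 and 29.1 against 43.9 and 43.9 in the CD4 sort (0.17, with overlap), and at 29.2 in the library labelled WT_CD45 2 against 43.0 in Lag3KO_CD45 1 (0.56), positive in both sorts. In CD4 T cells the CD4 sort gave 37.9 ± 8.33 against 44.0 ± 14.5 (SD, n = 2 each, log2 0.21), with overlap, and without Lag3KO_CD4 2 the sign turned (-0.17). No test was made on these sums.

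The sums by role are given for monocytes and macrophages of the CD4 libraries, with no test. Within monocytes and macrophages the Ifit genes summed to 2.62 and 2.13 UMIs per 10000 in WT_CD4 1 and 2 and to 5.19 and 6.71 in Lag3KO_CD4 1 and 2, and ISG15 conjugation to 5.13 and 7.77 against 9.93 and 13.7. Sensors (9.54 and 9.57 against 13.7 and 15.4) and transcription factors (4.71 and 6.24 against 8.62 and 10.6) were apart as well. Restriction factors were at 13.2 and 14.99 against 15.2 and 21.4, a narrow gap. The OAS family with PKR (4.33 and 7.33 against 5.94 and 8.61), the Schlafen genes (9.08 and 13.1 against 11.03 and 15.4) and the other members (6.19 and 7.77 against 7.25 and 10.1) overlapped. How often sums of other genes lie apart in these libraries was not determined.

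Of the smaller classes, migratory dendritic cells gave the single call. Irf7 was at 290 in WT_CD45 1, at 272 in the library labelled WT_CD45 2 and at 148 CPM in Lag3KO_CD45 1, a log2 difference of -1.001 ± 0.268 (adjusted p = 0.0325 from edgeR). As in the other classes held by the CD45 libraries alone, 1 Lag3KO library was set against 2 labelled WT, so the spread comes from those 2, and the Lag3 count of one contradicts its label. Irf7 was 1 of 34 members tested, where 0.739% of 5821 genes passed; 28 of the 34 were negative and 7 were at unadjusted p under 0.05. DESeq2 did not call Irf7, nor did edgeR without TMM or without the filter on low counts.

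In cDC2 0 of 39 passed (0% of 7319 genes), 29 were negative and 5 were at unadjusted p under 0.05: Ifit3 (-0.95 ± 0.26), Oas3 (-1.07 ± 0.36), Ddx58 (-0.84 ± 0.34), Rtp4 (-0.47 ± 0.20) and Ifi203 (-0.42 ± 0.18). Ifit3 was at 145, 105 and 68.8 CPM. In pDC 0 of 17 tested passed (0.175% of 3991 genes), with Usp18 (-1.17 ± 0.45) and Isg15 (-0.64 ± 0.29) at unadjusted p under 0.05, then Isg20 (1.69 ± 0.95), Ifi203 (-0.56 ± 0.36) and Stat2 (-0.64 ± 0.43). Of the 11 members tested in B cells none passed. First by p were Isg15 (-2.42 ± 0.82, with 102, 52.6 and 13.8 CPM from 32 UMIs), Phf11b (-1.47 ± 0.54), Slfn2 (-0.54 ± 0.37), Trim30a (-0.54 ± 0.45) and Irf7 (-0.78 ± 0.69). Markers of monocytes and macrophages in B cells were at 15.1, 6.26 and 3.82 UMIs per 10000 in the same order of libraries. Their part in the Isg15 values was not tested. NK cells had 0 of 11 (0.735% of 1769 genes), with Ifi203 (-1.36 ± 0.49) and Bst2 (1.01 ± 0.39) at unadjusted p under 0.05, then Slfn2 (-0.73 ± 0.44), Irf7 (0.65 ± 0.44) and Ifi204 (-1.56 ± 1.18).

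Classes present in both sorts gave no call either. In microglia 0 of 20 members tested passed (0.151% of 2651 genes), with Oas1a (0.95 ± 0.39) and Isg15 (0.50 ± 0.21) at unadjusted p under 0.05, then Ifit1 (1.203 ± 0.579), Usp18 (0.88 ± 0.43) and Irf7 (0.44 ± 0.30). CD8 T cells had 0 of 26 (0% of 3871 genes), with Slfn8 (-1.25 ± 0.45) at unadjusted p under 0.05, then Oasl2 (-0.55 ± 0.45), Ifi203 (-0.30 ± 0.28), Oas1a (-0.55 ± 0.56) and Ifit3 (-0.41 ± 0.42). Neutrophils had 0 of 20 (0% of 1251 genes) and 0 at unadjusted p under 0.05, with Ifit3 (-0.70 ± 0.47), Rtp4 (-0.34 ± 0.31), Oas1a (-0.81 ± 0.75), Irf9 (-0.53 ± 0.56) and Ifit3b (-0.68 ± 0.79) first. DESeq2 called 0 members in each of these classes and in cDC2, pDC, B and NK cells.

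The other genes of the pathway were read from the same fits. Of 21 interferon genes listed, 4 had any UMI: Ifng with 3885 in all, 2671 of them in CD4 T cells (153 CPM), Ifnz with 6, Ifnb1 with 5 (4 in migratory dendritic cells) and Ifnl2 with 1. No Ifna gene had a UMI at this depth. Ifnar2 was at 351 CPM in pDC, 141 in monocytes and macrophages and 43.1 in CD4 T cells, Ifnar1 at 155, 68.7 and 69.9, and Ifngr1, a chain of the interferon-gamma receptor, at 37.3, 252 and 1026. For genotype in CD4 T cells 0 of 7 receptors and kinases, 0 of 37 other type I response genes tested and 0 of 24 interferon-gamma response genes tested passed, with 1, 17 and 20 positive. In the monocyte and macrophage fit 0 of 34 and 0 of 21 genes of the latter lists passed, with 18 and 11 positive.

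The genes that accompany a high module score were sought by setting the highest 10% of barcodes by score against the lower 50%, summed per library, and testing only genes outside the module. The members chose these barcodes and were not tested. In WT_CD4 1, for example, the lowest CD4 T cell score inside the highest 10% was 66.1 and the next below it 66.0. Among CD4 T cells 486 of 5827 genes (8.34%) were higher and 391 (6.71%) lower in edgeR's test with the library as a block. Ifi27l2a was at 6293 CPM in the high barcodes and 1374 in the low ones (log2 difference 2.24 ± 0.07). It was higher in 7 of 7 libraries, as were Pyhin1 (3.02 ± 0.13), Iigp1 (3.39 ± 0.15), Gbp2 (2.68 ± 0.12), Ube2l6 (3.18 ± 0.16), Mndal (2.18 ± 0.11), Gm4955 (2.71 ± 0.14), Ifit1bl1 (3.86 ± 0.20), Pydc4 (3.15 ± 0.17), Ms4a4b (1.52 ± 0.08) and Ly6a (1.19 ± 0.06), all among the 12 genes with the smallest p. Ube2l6 is the conjugating enzyme of ISG15, and Gbp2 and Iigp1 are GTPases induced by interferon-gamma. Ifit1bl1 and Mndal are near copies of members.

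Of the fixed lists, 33 of 36 other type I response genes tested and 21 of 21 interferon-gamma response genes tested were higher in these CD4 T cells. Genes nearly absent from the low sets could pass the filter on low counts through the high sets. Batf2, for example, had means of 15.6 CPM in the high and 0.819 in the low sets. Both counts were thus in part fixed by the choice of barcodes. Also higher were Ifnar1 (0.50 ± 0.16), Ifnar2 (0.63 ± 0.20), Ifngr2 (1.06 ± 0.28) and the feedback inhibitor Socs1 (1.05 ± 0.12). Ifng itself was lower, at 60.3, 38.4, 114, 45.2, 42.4, 101 and 56.9 CPM in the high barcodes and 408, 63.0, 319, 127, 230, 170 and 111 in the low ones, in library order. It was lower in 7 of 7 libraries (log2 difference -1.67 ± 0.19, adjusted p = 1.22e-07 from edgeR). Barcodes with regulatory T cell markers made up 36.8%, 31.8%, 26.6%, 33.1%, 31.8%, 25.8% and 39.1% of the high set and 24.7%, 25.8%, 18.6%, 21.2%, 17.0%, 19.2% and 15.5% of the low set, higher in 7 of 7 libraries (described, not tested).

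MHC class II genes and Cxcl9, which myeloid cells make in quantity, were also higher in the high CD4 T cells, with Cd74 at 1.59 ± 0.21 (6 of 7 libraries) and Cxcl9 at 4.63 ± 0.33 (5 of 7). Monocyte and macrophage markers were higher in 7 of 7 libraries (not tested), at 3.41, 4.30, 3.19, 4.94, 19.2, 14.9 and 7.28 UMIs per 10000 in the high set and 2.87, 3.75, 2.79, 3.92, 10.9, 6.88 and 6.08 in the low set. Erythroid markers in WT_CD4 2 were at 30.3 in the high set and 0.218 in the low set. In Lag3KO_CD4 2 the order was the reverse, at 0.129 in the high set and 1.49 in the low set. Median depth in the CD4 libraries was 1869 to 2187 UMIs in the high and 2034.5 to 2898 in the low set. In WT_CD45 1 and the library labelled WT_CD45 2 it was 4003.5 and 3616 in the high and 3359.5 and 3299.5 in the low set. In Lag3KO_CD45 1 it was 2970 and 3249.5. T cell markers were at 24.0, 26.9 and 32.4 UMIs per 10000 in the high sets of the CD45 libraries. In their low sets these markers were at 34.8, 36.6 and 38.3. Within the CD4 libraries T cell markers were higher in the high sets. The part of these in the differences was not tested.

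Among monocytes and macrophages of the 3 CD45 libraries 1059 of 8739 genes (12.1%) were higher and 496 (5.68%) lower in the high-score barcodes. Cxcl10, a chemokine that draws in CXCR3-bearing T cells, was at 4325, 3651 and 3059 CPM in the high sets of WT_CD45 1, the library labelled WT_CD45 2 and Lag3KO_CD45 1, and at 120, 154 and 153 in the low sets (log2 difference 4.83 ± 0.15). All high sets lay far above all low ones. Plac8 (2.60 ± 0.07), Pyhin1 (3.61 ± 0.13), Mnda (3.35 ± 0.13), Ifi47 (3.002 ± 0.118), Ms4a4c (3.30 ± 0.13), Ifitm3 (1.89 ± 0.07), Gm4955 (4.07 ± 0.16), Mndal (3.14 ± 0.14), Igtp (2.73 ± 0.13) and Fam26f (2.63 ± 0.13) were also among the 12 with the smallest p. Ly6c2, a marker of recently arrived inflammatory monocytes, was higher too (1.70 ± 0.15), as was Socs1 (2.81 ± 0.18).

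In monocytes and macrophages, too, genes could pass the filter on low counts through the high sets. All 36 other type I response genes tested were higher there, and of 24 interferon-gamma response genes tested 18 were higher and 4 lower. The 4 were the MHC class II genes H2-Eb1 (-1.05 ± 0.08), H2-Aa (-0.95 ± 0.08), H2-Ab1 (-0.80 ± 0.08) and Cd74 (-0.70 ± 0.06), lower in 3 of 3 libraries. Cd74 was thus higher with the score in CD4 T cells and lower with it in monocytes and macrophages, 2 contrasts that were not tested against each other. Median depth was 4492 to 5047 UMIs in the high and 6126 to 7326 in the low sets, and class markers were at 198, 196 and 315 UMIs per 10000 in the high and 288, 323 and 283 in the low sets; their part was not tested.

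**Figure D5:**
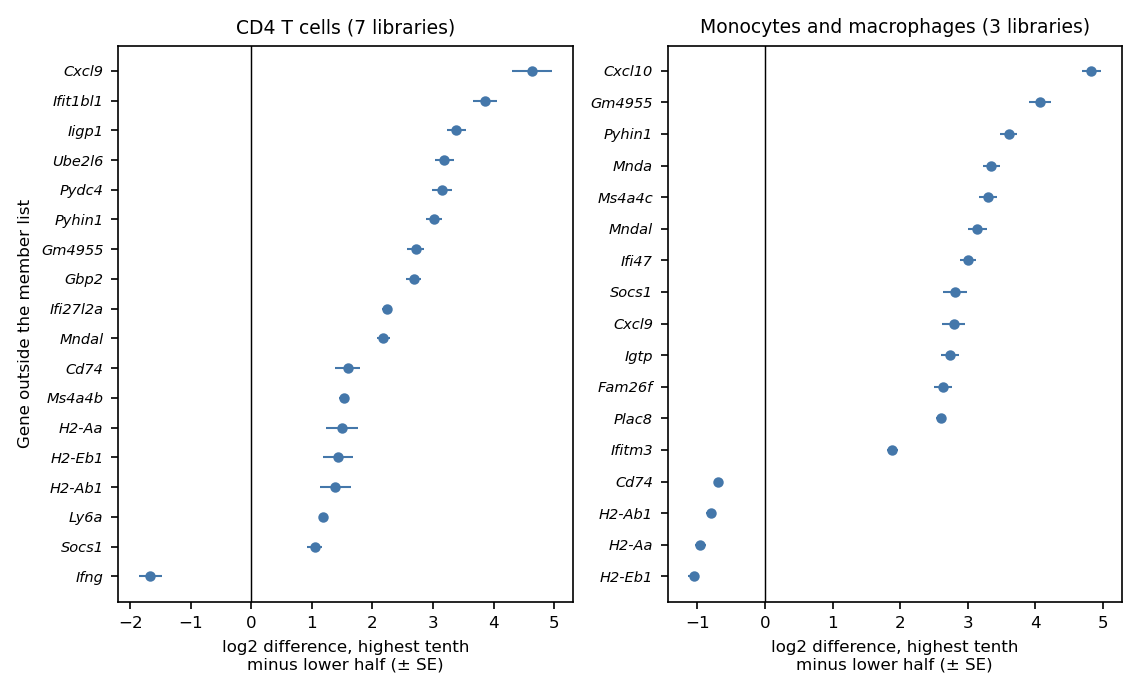
Log2 difference with standard error, highest 10% of barcodes by module score minus the lower 50%, for genes outside the module: genes among the 12 with the smallest p and Socs1, Cxcl9, Ifng and MHC class II genes where tested, in CD4 T cells (7 libraries, left) and monocytes and macrophages (3 CD45 libraries, right). Ifng lies at -1.67 in CD4 T cells, and the MHC class II genes lie right of 0 in CD4 T cells and left of 0 in monocytes and macrophages.

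How far members follow each other was described over 48 library-by-class sums, which share libraries, depth and barcodes. Correlation of a member's log2 level with the summed level of the other members was highest for Irf7 (Pearson r = 0.914), Isg15 (0.799), Trim30a (0.768), Oasl2 (0.744) and Usp18 (0.741), and lowest for Bst2 (-0.05), Phf11b (-0.22) and Ifi203 (-0.24). After class means were removed Isg15 (0.903) and Irf7 (0.883) remained the highest. Outside the module, the 10 most like of 3102 genes included H3f3b (0.816), Rab7 (0.772), Ifi35 (0.767), Ube2l6 (0.750), Atp6v1g1 (0.726), Litaf (0.724), Chmp4b (0.720), Rtfdc1 (0.707) and Hnrnph2 (0.702). Ifi35 and Ube2l6 are known interferon-induced genes.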

How the data were processed

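The deposited files hold UMI counts per gene and barcode for 7 libraries, made by the authors with Cell Ranger (version 3.0.2 per the file headers of the CD4 libraries, not given in the sources used here for the CD45 libraries) from Chromium 3′ libraries. GRCm38 (mm10) and Seurat are named in the submitters' processing notes. The files list 27998 (CD4) and 28692 (CD45) genes, and the 27998 in all were used. Replicate numbers follow accession order.

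Barcodes with fewer than 200 genes or over 10% mitochondrial UMIs were removed, then those with the highest Scrublet scores (scanpy 1.11.5; 0.8% per 1000 barcodes). Classes came from marker UMIs per 10000, by thresholds set after the markers' distributions were seen. The UMIs of each class with at least 20 barcodes in a library were added up and tested over all genes with edgeR 4.0.16 (quasi-likelihood, TMM, filterByExpr, two-sided, Benjamini-Hochberg), with DESeq2 1.42.0 as the other tool (R 4.3.3, Python 3.11.15, scipy 1.17.1). The procedure was tested on simulated data. Members and gene lists were chosen with earlier results of these data known, so no p is given for a score or list. Named were the members past the threshold (the 12 with the smallest p where more), otherwise the 5 with the smallest p, 11 members in every library, and 12 genes outside the module per high-score comparison. Members named for their level, Oas1a by library, and Ifng, Cxcl9, Ly6c2 and the MHC class II genes were chosen after their values were seen. Some genes that the rule names are not reported here. Alternatives were another tool, scaling, filter, doublet and class rules, leaving out each library, other score definitions and thinning depths, and a haemoglobin term added after seeing the data.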

Additional observations from a re-analysis of the deposited data

Results flagged for a closer look

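The summed module level differed between Lag3KO and WT in opposite directions in the 2 sorts, with every Lag3KO library on one side of the WT libraries of its sort, in monocytes and macrophages (log2 0.53 in the CD4 libraries and -0.22 in the CD45 libraries) and in neutrophils (0.35 and -0.58). The difference between the sorts was not tested for these sums. For single members in monocytes and macrophages it was tested, and 0 of 38 passed edgeR's adjusted threshold. On the CD45 side the lack of overlap in monocytes and macrophages rests on the label of WT_CD45 2 (49.5), which its Lag3 count contradicts. WT_CD45 1 (47.0) lay between that library and Lag3KO_CD45 1 (41.3). The CD45 side holds 1 Lag3KO library, and in neutrophils 1 WT library as well. With single libraries the neutrophil values of that side could not overlap, so their separation carries no information.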

How the results depend on the processing

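No paired analysis was possible because the labels give no replicate numbers that groups share and the numbers used here follow accession order. Of the counts of members called, 206 alternatives stayed within 1.5 times the reported count and 23 did not. In monocytes and macrophages of the CD4 libraries DESeq2 called 2 and no filter on low counts 5 members instead of 0, and leaving out 1 library gave 0 to 2. In those of the CD45 libraries no filter gave 2. For the difference between sorts no filter gave 3 in CD4 T cells and 7 in monocytes and macrophages, where DESeq2 gave 1 and leaving out 1 library 0 to 3. In cDC2 no filter gave 1, no TMM 1 and the stricter marker rule 3. The call of Irf7 in migratory dendritic cells became 0 with DESeq2, without the filter and without TMM. Leaving out 1 library gave 13 to 25 members for microglia against monocytes and macrophages and 7 to 13 for the regulatory T cell contrast, which DESeq2 put at 7 and the stricter marker rule at 6. The monocyte and macrophage high-score comparison went from 1555 genes to 910 with DESeq2 and to 976 to 1176 with 1 library left out. In CD4 T cells of the CD45 libraries the summed difference was -0.44 without Bst2, Isg20, Irf7, Slfn1, Slfn2 and Samhd1, -0.22 as a mean of barcode scores and -0.19 with mixed barcodes kept, and in monocytes and macrophages -0.32 and -0.28 under the first 2. Usp18 in pDC reversed to -0.66 without WT_CD45 1, the lower end of a range that reached 1.05 without the library labelled WT_CD45 2. The cause was not tested in any of these. Leave-one-out genotype fits of classes held only by the CD45 libraries, CD45 contrasts without Lag3KO_CD45 1 and NK cells under the stricter rule could not be fitted. Of the shares of high-score barcodes, 17 alternatives moved less and 11 more than the counting interval; in CD4 T cells they ran from 6.28% to 19.9% when thinned to 500 UMIs. Median depths of 2086.5 to 6405 UMIs per barcode limit shares of barcodes with a given member.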

Other observations

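Oas1a, one of several near-identical Oas1 genes, differed between libraries of 1 group. Over all barcodes it was at 39.4 CPM in WT_CD45 1 and at 10.1 in the library labelled WT_CD45 2, with 12.6 in Lag3KO_CD45 1 and 32.9 to 80.1 in the CD4 libraries. In monocytes and macrophages the 3 CD45 libraries held 48.9, 13.6 and 17.2. Its neighbour Oas1g was at 8.54, 3.94 and 4.43 over all barcodes of the same libraries. WT_CD45 1 is also the CD45 library with Lag3 UMIs. These values were noticed in the data and no test was made on them.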
